A study of Homo sapiens with 6 samples.

Results

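The AP-1 transcription factors are described here with and without knockdown of NFKBIZ in LOX-IMVI, a human melanoma cell line. NFKBIZ encodes IκBζ, a nuclear co-regulator that works together with DNA-bound transcription factors such as NF-κB and STAT proteins. The members are set by name, with no threshold on their values, though earlier results of these data were known when they were chosen: the 10 genes FOS, FOSB, FOSL1, FOSL2, JUN, JUNB, JUND, ATF3, BATF3 and JDP2, of 47432 genes listed. Bulk RNA sequencing covered 6 libraries, 3 from shCtrl cells and 3 from shNFKBIZ cells. Both groups carried a lentiviral pLKO.1 construct and were grown in RPMI-1640 with fetal calf serum. The shNFKBIZ cells expressed 1 hairpin against NFKBIZ and the shCtrl cells the control construct, and both were transduced cells selected with puromycin, with no cloning step named in the methods. In bulk RNA, a change in the share of some cells and a change in RNA per cell cannot be told apart. With 1 hairpin, an effect of the loss of IκBζ and any other effect of that hairpin cannot be told apart.

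AP-1 is a dimer of basic leucine zipper (bZIP) proteins. JUN proteins pair with each other or with FOS proteins, whereas FOS proteins need a JUN partner to bind DNA, and the dimers sit on the TPA response element or on the related cAMP response element. FOS and FOSB activate more strongly than FOSL1 and FOSL2, JUNB and JUND often restrain JUN, and ATF3, BATF3 and JDP2 pair with JUN proteins and commonly repress. In melanoma, FOSL1 and JUN are known for high levels in dedifferentiated, invasive states.

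For NFKBIZ itself the exon reads were 1519, 1629 and 1674 in shCtrl, against 474, 477 and 468 reads in shNFKBIZ, with no overlap of the groups. Its log2 fold change was -1.78 (SE 0.0581, edgeR adjusted p = 7.2e-17). The libraries held 22264473 to 24624839 exon reads, and reads in introns made up 7.16 to 7.46% of gene reads in shCtrl and 7.63 to 8.15% in shNFKBIZ. Melanocyte lineage markers were near 0: the TPM of 8 markers summed to 3.19 to 4.23 in shCtrl and 1.79 to 2.62 in shNFKBIZ, with MLANA, SOX10 and S100B listed at 0, so the line is a melanoma by its label and not by these markers. The summed TPM of 5 markers of dedifferentiated melanoma was 558 to 585 in shCtrl and 893 to 903 in shNFKBIZ. Of the 5, NGFR had 0 to 3 exon reads per library and was not tested, while AXL, SOX9, EGFR and NT5E were higher. Mean TPM went from 101 to 291 for NT5E and from 407 to 486 for AXL. The rise of the sum went in the same direction as FOSL1, and its part in the results below was not tested. Summed markers of leukocytes stayed at or below 1.01 TPM, those of endothelial cells at or below 0.102 TPM, and those of keratinocytes were 0.331 to 0.769 in shCtrl and 1.42 to 1.85 in shNFKBIZ.

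All 10 members were tested in a fit over 13843 genes. Expression of FOSL1 and, by a small step, JUN was higher in shNFKBIZ, whereas FOSL2, JUNB, JUND and ATF3 were lower. FOS, FOSB, BATF3 and JDP2 did not pass the test. A gene counted as past the threshold with an adjusted p of at most 0.05 and a change of at least 2-fold, which 2 members met, JUND and ATF3, both lower. Of all genes tested, 8.96% were past that threshold and 5.12% were past it and lower. Of all genes 3.84% were past it and higher. Without the fold limit 6 of the 10 members were called, against 65.3% of all genes, so the share of members called was near the background. The TPM of the 2 groups did not overlap for the same 6 members and for 69.5% of all genes. Upward calls covered 2 members and 32.5% of all genes, and downward calls 4 members and 32.8%. The median absolute log2 fold change was 0.40 over the members and 0.30 over all genes, and the medians with sign were 0.03 and 0.0043.

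Levels between genes are given as TPM, which divides exon reads by exon length. A gene has the same exon length in every library, whichever of its transcripts are expressed. The order between genes rests on that length. In shCtrl the order from high to low was FOSL1, JUN, FOSL2, JUNB, JUND, ATF3, BATF3, FOSB, FOS and JDP2. The 3 libraries of each gene were separate from those of its neighbours in this order, except that FOS and JDP2 overlapped. In shNFKBIZ the order was the same but for ATF3, which fell below BATF3, and no neighbours overlapped. FOSL1 rose from rank 142 to rank 71 of the 13843 genes by mean TPM, and JUND fell from rank 2392 to rank 5448.

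**Figure D1:**
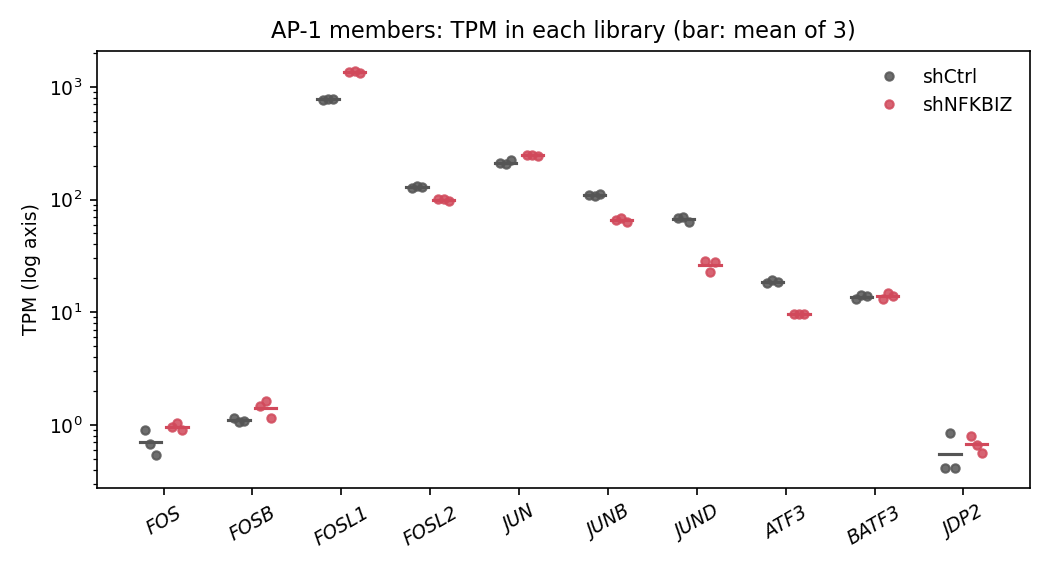
TPM of the 10 members on a log axis, 1 point per library, shCtrl in grey and shNFKBIZ in red, with bars at the mean of the 3 libraries. FOSL1 is the highest member in both groups, and the points of FOSL1, FOSL2, JUN, JUNB, JUND and ATF3 do not overlap between groups.

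The FOS family was carried by FOSL1. FOSL1 (ENSG00000175592, hg38 chr11:65892049-65900573, minus strand) encodes FRA-1, a FOS protein without the strong activation domain of FOS. Its TPM was 758, 783 and 774 in shCtrl and 1359, 1392 and 1313 in shNFKBIZ. Every shNFKBIZ library lay above every shCtrl library. The mean went from 772 ± 12.3 to 1355 ± 39.3 TPM (SD, n = 3 each), and the log2 fold change in the edgeR fit was 0.73 (SE 0.0326, adjusted p = 1.6e-14), a rise of 1.66-fold that stayed under the fold limit. The fold in the fit is smaller than the ratio of the TPM means because the fit also scales libraries by TMM factors (trimmed mean of M-values).

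FOSL2 (ENSG00000075426, chr2:28392448-28417317, plus strand), which encodes the related FRA-2, moved the other way. It had 125, 131 and 129 TPM in shCtrl and 100.4, 102 and 97.1 TPM in shNFKBIZ, and the groups did not overlap. It fell by 0.45 on the log2 scale (SE 0.0352, edgeR adjusted p = 2.5e-10), or 1.36-fold. The FOSL2 region also holds FOSL2-AS1 on the other strand, with 1 to 6 exon reads per library, and a second gene on the same strand. The counts of that same-strand gene are not given. Whether its RNA added to the exon or intron reads of FOSL2 was not tested. The TPM of FOSL1 divided by that of FOSL2 was 5.96 to 6.05 in shCtrl and 13.5 to 13.7 in shNFKBIZ.

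FOS and FOSB, the strongly activating members that cells make for a short time after stimulation, were scarce. FOS (ENSG00000170345, chr14:75278826-75282230, plus strand) had 18, 14 and 10 exon reads in the shCtrl libraries and 18, 19 and 17 in those of shNFKBIZ. FOSB (ENSG00000125740, chr19:45467995-45475179, plus strand) had 40, 38 and 35 and then 48, 52 and 38. Both genes had overlapping groups, and neither passed the test. In the edgeR fit the change was 1.27-fold for FOS (adjusted p = 0.32) and 1.21-fold for FOSB (adjusted p = 0.23), both toward higher. Without TMM factors, the ratio of summed reads over library totals, shNFKBIZ to shCtrl, was 1.36 for FOS (exact 95% interval 0.889 to 2.08). For FOSB it was 1.29 (0.996 to 1.67). These intervals cover counting error only. The FOS counts do not settle where within its interval a change of FOS lies. FOSB overlaps ERCC1 on the other strand, which was 1.07-fold higher in shNFKBIZ (edgeR adjusted p = 0.0498). ERCC1 had 1972 to 2371 exon reads per shCtrl library and 2332 to 2454 per shNFKBIZ library, many beside the 35 to 52 of FOSB. Reads were counted without strand, and whether ERCC1 RNA added to the FOSB count was not tested. ERCC1 is named here for that overlap, outside the naming rule.

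The 3 JUN genes split. JUN and JUNB were both among the better expressed members, but JUN was slightly higher and JUNB and JUND were lower in shNFKBIZ. To set their upstream DNA side by side, the bases before the RefSeq transcription start are shown 5′ to 3′ on the gene's strand (GRCh38.p14), with those of ATF3, the other member past the threshold. They were cut where the gene of the deposited tables begins. Capitals mark a match to the cAMP response element TGACGTCA in JUND and to the variant TGACATCA in JUN and ATF3.
JUN (chr1:58784049-58784297, minus strand): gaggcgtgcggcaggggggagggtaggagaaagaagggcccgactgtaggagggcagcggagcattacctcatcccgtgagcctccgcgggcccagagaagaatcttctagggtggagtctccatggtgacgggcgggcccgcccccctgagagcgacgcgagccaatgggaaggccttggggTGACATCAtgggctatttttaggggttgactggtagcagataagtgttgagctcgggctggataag
JUNB (chr19:12791236-12791485, plus strand): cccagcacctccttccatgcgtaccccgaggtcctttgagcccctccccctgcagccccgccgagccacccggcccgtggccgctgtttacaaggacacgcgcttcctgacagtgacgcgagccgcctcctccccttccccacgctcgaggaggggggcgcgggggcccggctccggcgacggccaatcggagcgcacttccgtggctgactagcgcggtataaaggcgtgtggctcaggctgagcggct
JUND (chr19:18281623-18281872, minus strand): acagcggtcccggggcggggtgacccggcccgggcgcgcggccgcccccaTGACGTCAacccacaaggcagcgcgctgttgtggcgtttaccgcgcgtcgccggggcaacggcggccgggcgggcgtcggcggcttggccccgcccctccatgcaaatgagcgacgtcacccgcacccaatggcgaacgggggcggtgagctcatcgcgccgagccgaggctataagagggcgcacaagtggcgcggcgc
ATF3 (chr1:212565157-212565333, plus strand): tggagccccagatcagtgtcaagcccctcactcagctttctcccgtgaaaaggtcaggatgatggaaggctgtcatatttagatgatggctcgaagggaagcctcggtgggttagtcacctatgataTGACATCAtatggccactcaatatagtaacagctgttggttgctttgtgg

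The motifs were searched on both strands in the 250 bases before each start. This covered the 8 members with a start in the promoter set used, which have 11 starts. FOSL1 and BATF3 had no start in that set and were not searched. The JUN match lay at positions -67 to -60 from the start, where -1 is the base just before it. The JUND match lay at -200 to -193. The ATF3 match lay at -123 to -116 of its first start, the one shown, and its second start had no match to any of the 6 motifs. Among 35116 starts of all genes, TGACATCA was present in 2.37% and TGACGTCA in 1.65%. The shorter TGACGT, contained in TGACGTCA, was found in FOS at -64 to -59, in FOSB at -60 to -55, in FOSL2 at -66 to -61, in JDP2 at -97 to -92 of its second start and in JUND again at -87 to -82 on the other strand. It was present before 7.1% of all starts. The TPA response element TGACTCA, the NF-κB consensus and the CArG box had no match in these members' windows, and they were present before 4.2%, 5.21% and 1.16% of all starts. JUNB had no match to any of the 6 motifs. These are matches of letters in a fixed window. JUN, which was 1.10-fold higher, carried one, whereas FOSL1, the member with the larger rise, was not searched. JUND (TGACGTCA) and ATF3 (TGACATCA), which were lower, also carried one. FOSL2, also lower, carried only the shorter TGACGT, as did FOS, FOSB and JDP2, which were not called. JUNB, which was lower, carried none.

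JUN (ENSG00000177606, chr1:58776845-58784048, minus strand), the most active JUN protein, had 209, 205 and 225 TPM in shCtrl and 247, 251 and 244 TPM in shNFKBIZ. The groups did not overlap, but the step was small. The log2 fold change was 0.13 (SE 0.0348, edgeR adjusted p = 0.0019), or 1.10-fold, and ranged from 0.10 to 0.22 over the processing alternatives.

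JUNB (ENSG00000171223, chr19:12791486-12793315, plus strand), a JUN protein with weaker activity that can restrain JUN, had 109.7, 108 and 112 TPM in shCtrl and 65.6, 67.9 and 63.5 TPM in shNFKBIZ. All shNFKBIZ libraries were lower than all shCtrl libraries. Expression fell by 0.83 on the log2 scale (SE 0.0483, edgeR adjusted p = 1.7e-12), or 1.77-fold. The single JUNB exon lies inside the longer gene HOOK2 on the other strand, and the reads were counted without strand. HOOK2, named for that overlap, had 67 to 73 exon reads per shCtrl library and 69 to 88 per shNFKBIZ library, few beside the 1186 to 1271 and 691 to 715 reads of JUNB.

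JUND (ENSG00000130522, chr19:18279694-18281622, minus strand), the JUN protein usually present at a steady level in resting cells, changed most among the members. It had 68.4, 69.3 and 63.6 TPM in shCtrl and 28.2, 22.8 and 27.8 TPM in shNFKBIZ. The groups were far apart. The mean went from 67.1 ± 3.08 to 26.3 ± 3.02 TPM (SD, n = 3 each) and the log2 fold change was -1.43 (SE 0.0793, edgeR adjusted p = 8.7e-12), or 2.70-fold lower. Its longest transcript had the highest GC content of the members, 69.9%, and with the GC and length trend over genes removed the log2 fold change was -1.49.

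ATF3, BATF3 and JDP2 form the remaining group of small JUN partners. ATF3 (ENSG00000162772, chr1:212565334-212620777, plus strand), a stress-induced repressor, had 18.2, 19.3 and 18.5 TPM in shCtrl and 9.59, 9.73 and 9.74 TPM in shNFKBIZ. The groups did not overlap and the libraries within each were close. The log2 fold change was -1.03 (SE 0.0734, edgeR adjusted p = 5.4e-11), or 2.04-fold lower. That value is close to the fold limit: it was -0.94 when libraries were scaled by their size alone and -0.99 without shCtrl replicate 2, which leaves JUND as the 1 member past the threshold in each case.

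BATF3 (ENSG00000123685, chr1:212686417-212699840, minus strand), best known for its role in dendritic cells, had 13.2, 14.2 and 13.8 TPM in shCtrl and 13.1, 14.8 and 13.9 TPM in shNFKBIZ. The groups overlapped. The log2 fold change was -0.07 (SE 0.0899, edgeR adjusted p = 0.54). The ratio of summed reads, which is taken without TMM factors, was 1.02 (exact 95% interval 0.910 to 1.14). JDP2 (ENSG00000140044, chr14:75427716-75474111, plus strand), a JUN-binding repressor, had 16, 34 and 15 exon reads in the shCtrl libraries and 29, 24 and 21 in those of shNFKBIZ. The shNFKBIZ libraries lay within the shCtrl range, and the ratio was 1.20 (0.848 to 1.70).

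Introns gave a second readout of the same genes. A read in an intron comes mostly from RNA that is not yet spliced. Of the 10 members 4 had enough intron reads to be tested, and FOSL2 and ATF3 were called, both lower, of which ATF3 was past the threshold. In the intron fit over 12119 genes, 6.6% were past the threshold, 3.89% of all genes were past it and lower, and 38.8% were called without the fold limit, 19.5% of all genes lower. JUNB and JUND have no annotated intron, their exon lengths of 1830 and 1929 bases filling the whole gene, and so could have no intron reads. FOS and FOSB had at most 1 and JUN at most 5 per library. JDP2 had 5 to 11.

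FOSL1 differed between exons and introns. Its intron reads were 1390, 1396 and 1242 in shCtrl and 1431, 1658 and 1440 in shNFKBIZ. All 3 shNFKBIZ counts lay above the shCtrl counts, by little. The intron log2 fold change was 0.08 (SE 0.0551, edgeR adjusted p = 0.27), against 0.73 in exons. The difference between the exon and the intron change was 0.65 (SE 0.0595, edgeR adjusted p = 8.4e-17, from 1 model over both kinds of read). Of 11025 genes in that model 28.9% had such a difference called, and 12.4% had it called with the exon change above the intron change. Per library, FOSL1 had 6.40, 6.80 and 6.78 exon reads for each intron read in shCtrl and 10.5, 9.11 and 10.2 in shNFKBIZ, with no overlap. Over the whole libraries, intron reads made up 7.16 to 7.46% of gene reads in shCtrl and 7.63 to 8.15% in shNFKBIZ. Reads that span an exon-exon junction, a subset of the exon reads, gave 0.72 (SE 0.0423, edgeR adjusted p = 8.6e-21), in a fit where 54.9% of 10622 genes were called and 6.59% were past the threshold.

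FOSL2 and ATF3 were lower in both kinds of read. FOSL2 had 208, 208 and 186 intron reads in shCtrl and 128, 147 and 133 in shNFKBIZ. All shNFKBIZ counts were lower. The intron log2 fold change was -0.65 (SE 0.0990, edgeR adjusted p = 1.6e-06), and the exon change minus the intron change was 0.20 (SE 0.0984, adjusted p = 0.12 by edgeR). ATF3 had 25, 43 and 21 intron reads and then 13, 10 and 14, with no overlap. Its intron log2 fold change was -1.34 (SE 0.295, edgeR adjusted p = 0.00037) and the difference between exon and intron change was 0.33 (SE 0.294, adjusted p = 0.44). BATF3 had 83, 57 and 53 and then 77, 84 and 77 intron reads, so the groups overlapped. Its intron log2 fold change was 0.21 (SE 0.157, edgeR adjusted p = 0.30).

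**Figure D2:**
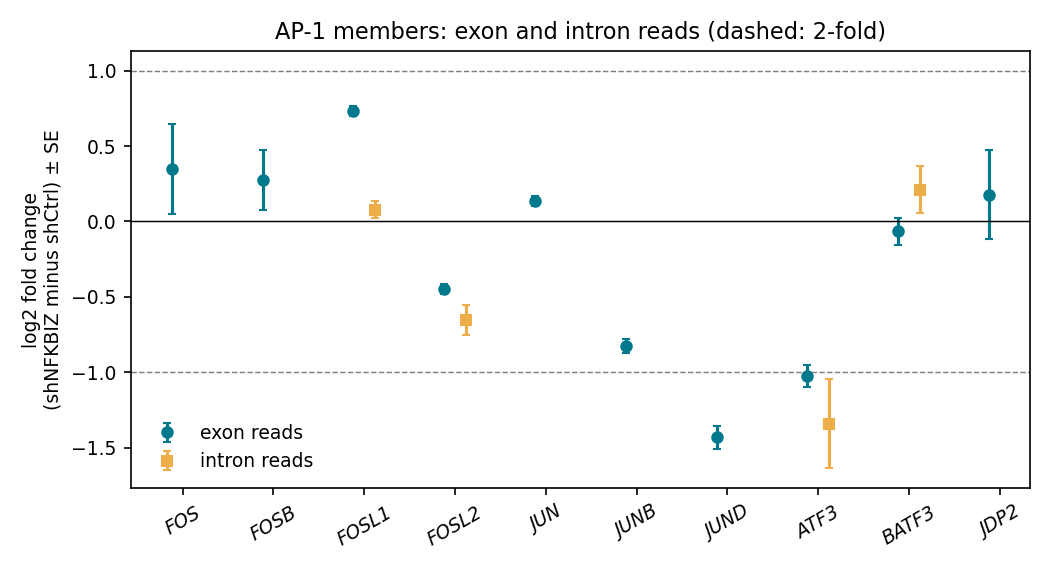
Log2 fold change (shNFKBIZ minus shCtrl) of the members with its SE, circles for exon reads and squares for intron reads where these were tested, with dashed lines at 2-fold. For FOSL1 the exon value of 0.73 stands apart from the intron value of 0.08, while for FOSL2 and ATF3 both values are below 0.

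The make-up of the AP-1 transcript pool is described by each member's percent of the summed TPM of the 10 genes. The sum was 1325 ± 17.9 TPM in shCtrl and 1820.4 ± 45.6 TPM in shNFKBIZ (SD, n = 3 each). FOSL1 made up 58.2 ± 0.462% of it in shCtrl and 74.4 ± 0.298% in shNFKBIZ. JUN went from 16.1 ± 0.727% to 13.6 ± 0.158%, although its own level was higher. JUNB went from 8.30 to 3.61% and JUND from 5.06 to 1.45%. Within the 3 JUN genes, JUN took 54.6 ± 1.37% in shCtrl and 72.9 ± 0.470% in shNFKBIZ, and JUND 17.2 ± 1.21% and 7.75 ± 0.926%. Within the 4 FOS genes, FOSL1 took 85.6% and 93.0%. The summed FOS family was 2.31 times the summed JUN family in shCtrl and 4.29 times in shNFKBIZ. These shares are of transcripts, not proteins, and they follow from the levels above, so no test was made on them.

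**Figure D3:**
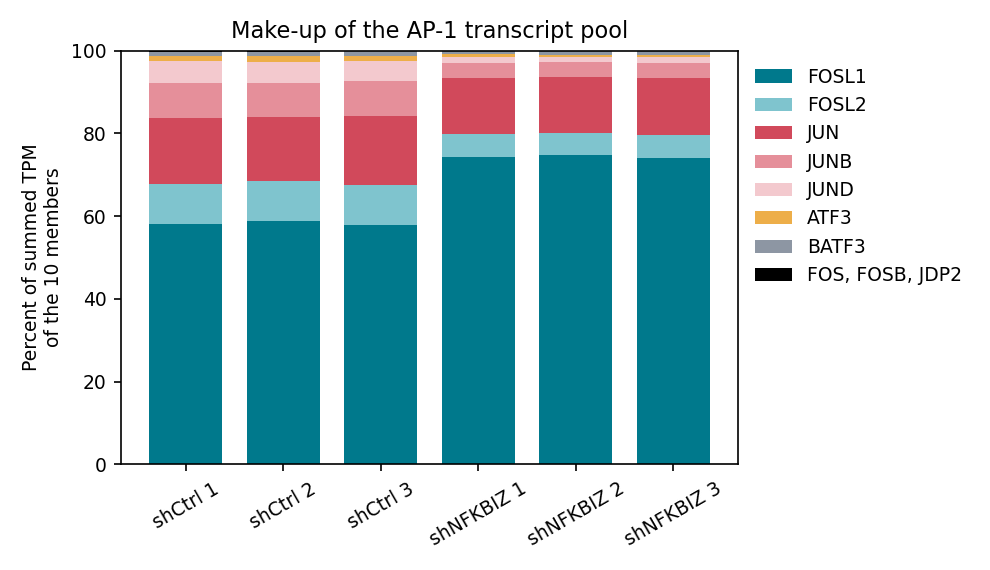
Percent of the summed TPM of the 10 members in each of the 6 libraries, stacked by member. In every shNFKBIZ library FOSL1 fills more of the bar than in every shCtrl library, with means of 74.4% and 58.2%, and JUNB and JUND fill less.

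The genes around AP-1 were taken as lists. Other bZIP factors, which can pair with or compete with the members, numbered 16, of which 13 were tested. In the edgeR fit 0 were past the threshold, as with DESeq2, against 8.96% of all genes, and 10 had an unadjusted p under 0.05. Of these 10, 3 were called higher and 7 lower without the fold limit, with log2 fold changes from -0.95 to 0.81. That is 76.9% of those tested, against 65.3% of all genes, of which 32.5% were higher and 32.8% lower. Their median log2 fold change was -0.10, against 0.0043 over all genes. Leaving out shCtrl replicate 1, shCtrl replicate 3 or shNFKBIZ replicate 2 put 1 factor past the threshold in each case.

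Immediate early genes, which are switched on by the same stimuli as FOS and JUN, numbered 22, of which 19 were tested. Past the threshold were 2 higher and 6 lower, 42.1% of those tested against 8.96% of all genes (3.84% higher and 5.12% lower), and the median log2 fold change was -0.26. This list, like the other 3, was chosen with earlier results known. NR4A3, an orphan nuclear receptor, went from 6.45 ± 0.208 to 0.452 ± 0.117 TPM (log2 fold change -3.91, SE 0.152, edgeR adjusted p = 1.6e-15). IER3, a survival gene, went from 629 ± 6.75 to 183 ± 9.48 TPM, a fall by 1.86 on the log2 scale. CCN1 and CCN2, secreted matrix proteins, fell by 1.63 and by 1.74 on the log2 scale, and NR4A2 fell by 1.66. KLF4, a zinc finger factor, rose from 0.723 to 2.77 TPM (log2 fold change 1.84). FOS and FOSB, the best known genes of this class, were not among those that passed the test.

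Kinases, activators and ligases upstream of AP-1 numbered 22, and all were tested. None was past the threshold and higher, and 2 were past it and lower, 9.09% against the 8.96% of all genes. Without the fold limit 2 were higher and 12 lower, together 63.6% against 65.3% of all genes (32.5% higher and 32.8% lower), and the median log2 fold change was -0.21. MAP2K2, which encodes the ERK-activating kinase MEK2, went from 65.7 ± 3.06 to 21.9 ± 1.54 TPM (log2 fold change -1.67, SE 0.0513, edgeR adjusted p = 3.4e-16). The other one, MAP2K6, had 18, 27 and 19 exon reads in the shCtrl libraries and 11, 10 and 10 in those of shNFKBIZ, and it is named after its values were seen because it is 1 of only 2. Its call was lost without shCtrl replicate 2, and it was also lost under other alternatives given with the processing.

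Known AP-1 target genes numbered 28, of which 24 were tested. They moved in both directions: 6 were past the threshold and higher and 5 past it and lower, 45.8% of those tested against 8.96% of all genes (3.84% higher and 5.12% lower), and the median log2 fold change was 0.02. Among the higher ones, the stromelysin MMP3 went from 3.91 ± 0.436 to 86.7 ± 4.47 TPM (log2 fold change 4.39, SE 0.0946, edgeR adjusted p = 8.1e-20). The gelatinase MMP9 went from 10.7 to 62.9 TPM, HMOX1, a heme-degrading enzyme, from 21.2 to 316 TPM, and NT5E, the ecto-enzyme CD73, from 101 to 291 TPM. NT5E is also on the list of dedifferentiated melanoma markers. Among the lower ones, the cytokine IL6 went from 8.73 ± 1.54 to 0.225 ± 0.0860 TPM (log2 fold change -5.33, SE 0.222, edgeR adjusted p = 9.4e-15). The chemokine CXCL8 went from 663 ± 74.3 to 140.1 ± 1.67 TPM. Many of these genes also answer to other factors, and the list was not tested against the members' levels.

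**Figure D4:**
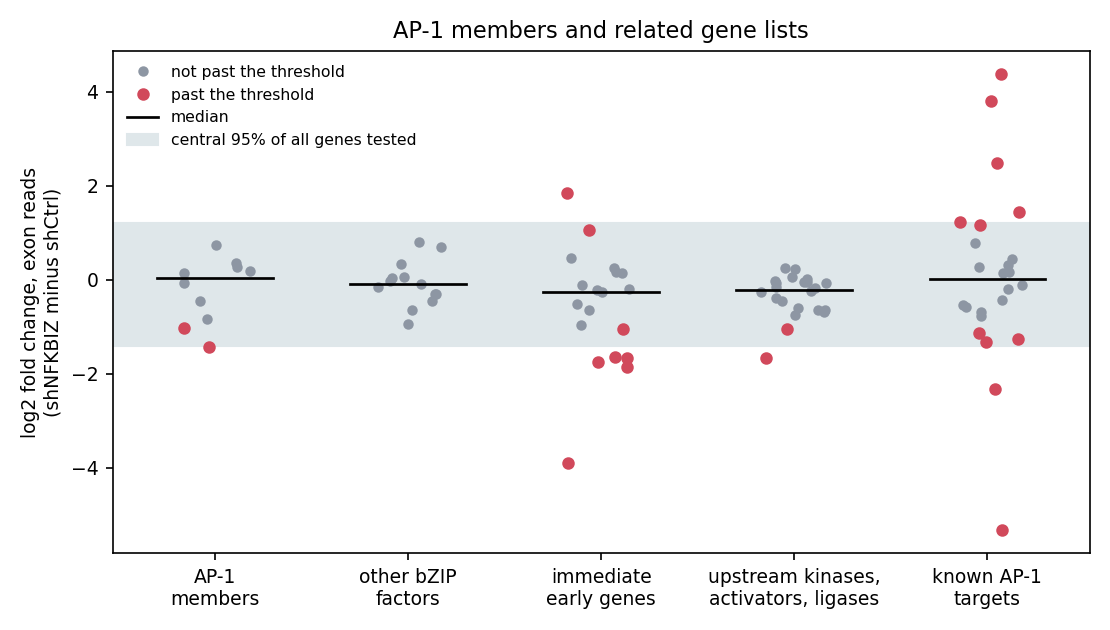
Log2 fold change in exon reads (shNFKBIZ minus shCtrl) of every tested gene in the members and the 4 related lists, red where past the threshold, with a line at each list's median. The band holds the central 95% of all genes tested, from -1.41 to 1.20. The members ran from -1.43 (JUND, just below the band) to 0.73. That range is narrower than those of the immediate early genes and the known targets. It is wider than those of the other bZIP factors (-0.95 to 0.81) and the upstream genes (-1.67 to 0.26).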

How the data were processed

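The study sequenced RNA of LOX-IMVI cells, 3 libraries of shCtrl and 3 of shNFKBIZ, described as independent experiments. The labels give replicate numbers only, so p-values measure the spread between these libraries. The authors mapped reads with CLC Genomics Workbench to human genome build GRCh38 with Ensembl genes, and deposited raw counts per gene of exon, intron and exon-exon reads, along with TPM. Up to 10 hits per read were allowed and strand was not used. All exon reads of the members were counted as unique.

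Total exon counts were tested with edgeR 4.0.16 in R 4.3.3 (TMM factors, filterByExpr, robust quasi-likelihood fit, two-sided, Benjamini-Hochberg over all genes tested). Intron counts had their own fit of the same kind. Exon and intron changes were compared in 1 model with libraries as blocks. TPM was recomputed from exon counts and exon lengths. Promoter sequences came from RefSeq. The members and gene lists were chosen with earlier results of these data known. Named are all members, NFKBIZ and, per list, at most 6 genes past the threshold with at least 50 mean exon reads in 1 group. Alternatives were DESeq2 1.42.0, other scaling and filters, other read types, a replicate block, removal of the GC and length trend, and leaving out each library. Deviations of same-numbered libraries correlated weakly (0.021, 0.056 and 0.029, all under the limit of 0.1), so the numbers were not used as pairs.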

Additional observations from a re-analysis of the deposited data

How the results depend on the processing

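No log2 fold change changed sign under any alternative run for the 6 members that passed the test, NFKBIZ or the 13 genes named by rule from the lists. The single values of MAP2K6, HOOK2 and ERCC1 under the alternatives are not given. FOSL1 ranged from 0.65 to 0.82, FOSL2 from -0.47 to -0.36, JUNB from -0.90 to -0.74, JUND from -1.49 to -1.33 and ATF3 from -1.05 to -0.80. BATF3, which was not called, turned to 0.02 with library size alone and 0.01 with total gene reads, and JDP2, also not called, reached -0.0013. The members past the threshold, 2 in the main analysis, were 1 with library size alone and 1 to 2 when libraries were left out. Scaling by library size alone moved the median log2 fold change of all genes to 0.09. Exon-exon reads, an alternative chosen after seeing the data, allowed 4 members to be tested, of which 0 were past the threshold and 3 were called without the fold limit, JUND not being among the 4. With them 700 of all genes were past the threshold in place of 1241, 4 immediate early genes in place of 8 and 1 upstream gene in place of 2. The upstream count was also 1 with library size alone, with DESeq2 and with the GC and length trend removed, and 1 to 2 when libraries were left out. Other bZIP factors gave 0 to 1 when libraries were left out. The members with a called difference between exon and intron change were 1 to 2 when libraries were left out: without shCtrl replicate 1, BATF3 joined FOSL1 (-0.53, edgeR adjusted p = 0.039), and its intron change was then 0.44 (adjusted p = 0.045). NT5E dropped under the fold limit with total gene reads, at 0.99. With no filter on low counts 1740 genes were past the threshold, with at least 10 counts in every library 891, and with DESeq2 1178. With the replicate block 1244 genes were past the threshold and the members' counts stayed at 2 and 6. Each shCtrl library correlated best with the shNFKBIZ library of its own number, which is a hint from the data and not from the design. Depth limited FOS, FOSB and JDP2, with at most 52 exon reads per library.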
